A study of Homo sapiens with 40 samples.

Results

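The hepatocyte transcription factors described here are 9 genes, HNF4A, FOXA1, FOXA2, FOXA3, CEBPA, CEBPB, ONECUT1, PROX1 and NR5A2, chosen by name out of 56568 gene names in the expression tables. Their transcript abundance was measured by RNA sequencing in HepaRG cells, a human hepatic line that differentiates into hepatocyte-like and biliary-like cells. Differentiated cultures were exposed from day 8 to day 14 to PCB 126 at 100 pM, 10 nM or 1 µM, to glyphosate at 10 µg/L, 1 mg/L or 0.1 g/L, to Roundup at 10 µg/L, or to the solvent control, with 5 libraries in each of the 8 groups. All groups, controls included, received the same test medium with fetal bovine serum and DMSO. HepaRG is 1 cell line, and the labels do not say that the 5 libraries of a group came from separate cultures, so the p values measure only the spread between these libraries, which may be technical. PCB 126, a polychlorinated biphenyl with dioxin-like action, is a ligand of the aryl hydrocarbon receptor (AhR), glyphosate is a herbicide, and Roundup is a commercial herbicide containing it.

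Liver-enriched transcription factors bind one another's promoters and those of genes for albumin, apolipoproteins, clotting factors and metabolic enzymes, and together they keep hepatocytes in the differentiated state. HNF4A is a nuclear receptor at the centre of this network, the FOXA proteins open chromatin for other factors, and the C/EBP proteins CEBPA and CEBPB share DNA sites but differ in their ties to quiescence and to injury. The HNF4A gene has 2 promoters, P2 upstream, used in fetal liver and pancreas, and P1 downstream, used in adult liver.

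The PCB 126 exposure was checked by CYP1A1, the classical AhR target, which averaged 2.33 ± 3.40 FPKM without PCB 126, 86.2 ± 133 with 100 pM, 268 ± 113 with 10 nM and 235 ± 108 with 1 µM (SD, n = 5 each). The 100 pM libraries ran from 1.09 to 319 FPKM and overlapped with the control libraries at 0 to 7.69. At 10 nM and 1 µM the lowest libraries had 92.1 and 85.2 FPKM. At 100 pM the check thus did not show induction in every library. FPKM are fragments per kilobase of transcript, scaled to the mapped fragments of the library, and they were summed here over all transcripts of a gene name. Of the 40 libraries, 9 stood apart on the first principal component of all libraries (41.4% of the variance), with FPKM sums of 255292 to 332974 against 311488 to 513059 in the other 31. They were 1 control library (replicate 5), 2 at 10 nM PCB 126 (replicates 3 and 5), 2 at 1 µM (replicates 1 and 5), 1 at 10 µg/L glyphosate, 1 at 0.1 g/L glyphosate and 2 with Roundup. Several results of the members are given with and without them, and the list genes and marker sums with all libraries only. Hepatocyte markers were present in every group, with a sum over 11 markers of 14626 to 21336 FPKM in the control libraries, and albumin alone at 11206 ± 1483 (SD, n = 5). PTPRC, the pan-leukocyte marker, did not exceed 0.0429 FPKM in any library.

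RefSeq promoter windows on GRCh38.p14, from 250 bases before to 50 after a start site, were at hand for 7 members (10 windows). FOXA2 and PROX1 had none. The part before the start site is printed for the 3 members with the lowest unadjusted p values under PCB 126 and for both HNF4A promoters, because the comparisons below turn on them. Each runs 5′ to 3′ on the strand of the gene, and capitals mark GCGTG or its reverse complement CACGC (the core bound by the AhR complex, searched on both strands) and TATAAA (the TATA box, searched on the strand of the gene).
FOXA1, chr14:37595250-37595499, minus strand: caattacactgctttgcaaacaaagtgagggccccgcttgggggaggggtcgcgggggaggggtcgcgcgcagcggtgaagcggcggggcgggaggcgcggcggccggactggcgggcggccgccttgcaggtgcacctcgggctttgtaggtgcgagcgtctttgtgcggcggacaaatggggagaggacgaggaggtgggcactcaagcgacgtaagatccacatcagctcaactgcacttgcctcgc
FOXA3, chr19:45864192-45864325, plus strand, from the end of an upstream FOXA3 exon to the start site: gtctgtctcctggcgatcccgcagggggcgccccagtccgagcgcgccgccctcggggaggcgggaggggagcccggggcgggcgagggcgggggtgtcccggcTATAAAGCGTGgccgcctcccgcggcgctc
CEBPA, chr19:33302535-33302784, minus strand: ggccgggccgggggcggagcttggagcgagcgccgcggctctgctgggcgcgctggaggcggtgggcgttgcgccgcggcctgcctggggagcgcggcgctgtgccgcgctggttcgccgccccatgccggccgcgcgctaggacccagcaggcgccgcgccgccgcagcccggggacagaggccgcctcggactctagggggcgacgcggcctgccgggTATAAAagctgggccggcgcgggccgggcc
HNF4A P2, chr20:44355449-44355698, plus strand: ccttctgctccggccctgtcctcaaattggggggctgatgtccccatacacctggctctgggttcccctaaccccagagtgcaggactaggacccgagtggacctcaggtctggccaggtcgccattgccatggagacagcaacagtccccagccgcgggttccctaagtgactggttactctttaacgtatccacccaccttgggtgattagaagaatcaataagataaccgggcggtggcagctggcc
HNF4A P1, chr20:44400989-44401238, plus strand: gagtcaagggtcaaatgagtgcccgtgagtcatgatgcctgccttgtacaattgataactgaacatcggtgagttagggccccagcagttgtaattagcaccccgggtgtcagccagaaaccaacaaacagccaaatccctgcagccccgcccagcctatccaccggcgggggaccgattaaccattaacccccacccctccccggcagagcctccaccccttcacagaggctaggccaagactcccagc
Of the FOXA1 stretch, 99 bases lie in an exon of a non-coding transcript of the same gene in the GENCODE annotation, and the 5′ end of the main FOXA1 transcript of the tables, 37595034, lies downstream of the RefSeq start. The last bases of the CEBPA stretch lie inside the CEBPA transcript of the tables, whose 5′ end is 33302564. The FOXA3 stretch holds 1 GCGTG, directly after a TATAAA, at 24 bases before the RefSeq start. Both lie inside the main FOXA3 transcript of the tables, whose 5′ end is 45864260. The CEBPA stretch holds a TATAAA at 30 bases before the start and no GCGTG, and the FOXA1 and both HNF4A stretches hold neither sequence. Over all 300 bases, 5 of the 10 windows hold the AhR core in either orientation (1 of FOXA3, ONECUT1 and NR5A2 each, 2 of CEBPB). Of 35116 promoters of the same length, 36.5% hold it, and 7.33% hold TATAAA. A match is a description of the sequence and not a binding site.

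In the control group the 9 members ranged from 5.77 to 21.8 FPKM on average, a scale that is per kilobase of transcript and can be compared between genes. CEBPB was highest at 21.8 ± 7.17 FPKM (SD, n = 5), followed by HNF4A at 19.5 ± 3.95, CEBPA at 14.7 ± 2.76 and PROX1, a homeobox factor of hepatoblasts and hepatocytes, at 12.7 ± 3.79. FOXA3 stood at 11.2 ± 2.05, ONECUT1, a cut-homeobox factor, at 10.4 ± 5.97, FOXA1 at 7.70 ± 1.75, NR5A2, a nuclear receptor of bile acid and cholesterol genes, at 6.45 ± 1.48, and FOXA2 at 5.77 ± 1.71. All members are placed here by their named transcripts alone. Together with an assembled transcript without a gene name, described below, the ONECUT1 locus averaged 19.6 ± 6.29 FPKM in the control group. Over the 40 libraries, assembled transcripts without a gene name also averaged 6.07 FPKM at the FOXA2 locus, mostly outside the span of its named transcripts. They averaged 2.86 FPKM at PROX1 and 1.22 at NR5A2. The order is thus one of named transcripts. The control ranges of all 8 neighbouring pairs in this order overlapped. Only HNF4A over CEBPA held in all 5 control libraries, and in 39 of the 40 libraries, whereas the other 7 neighbouring pairs were in this order in 3 of 5 control libraries. Across the 40 libraries NR5A2 had the widest span, 55.9-fold, because of 1 library at 1 µM PCB 126 with 0.181 FPKM. FOXA1 spanned 10.6-fold, PROX1 10.0-fold and ONECUT1 9.18-fold, and the remaining 5 members spanned 3.25-fold to 4.88-fold.

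**Figure D1:**
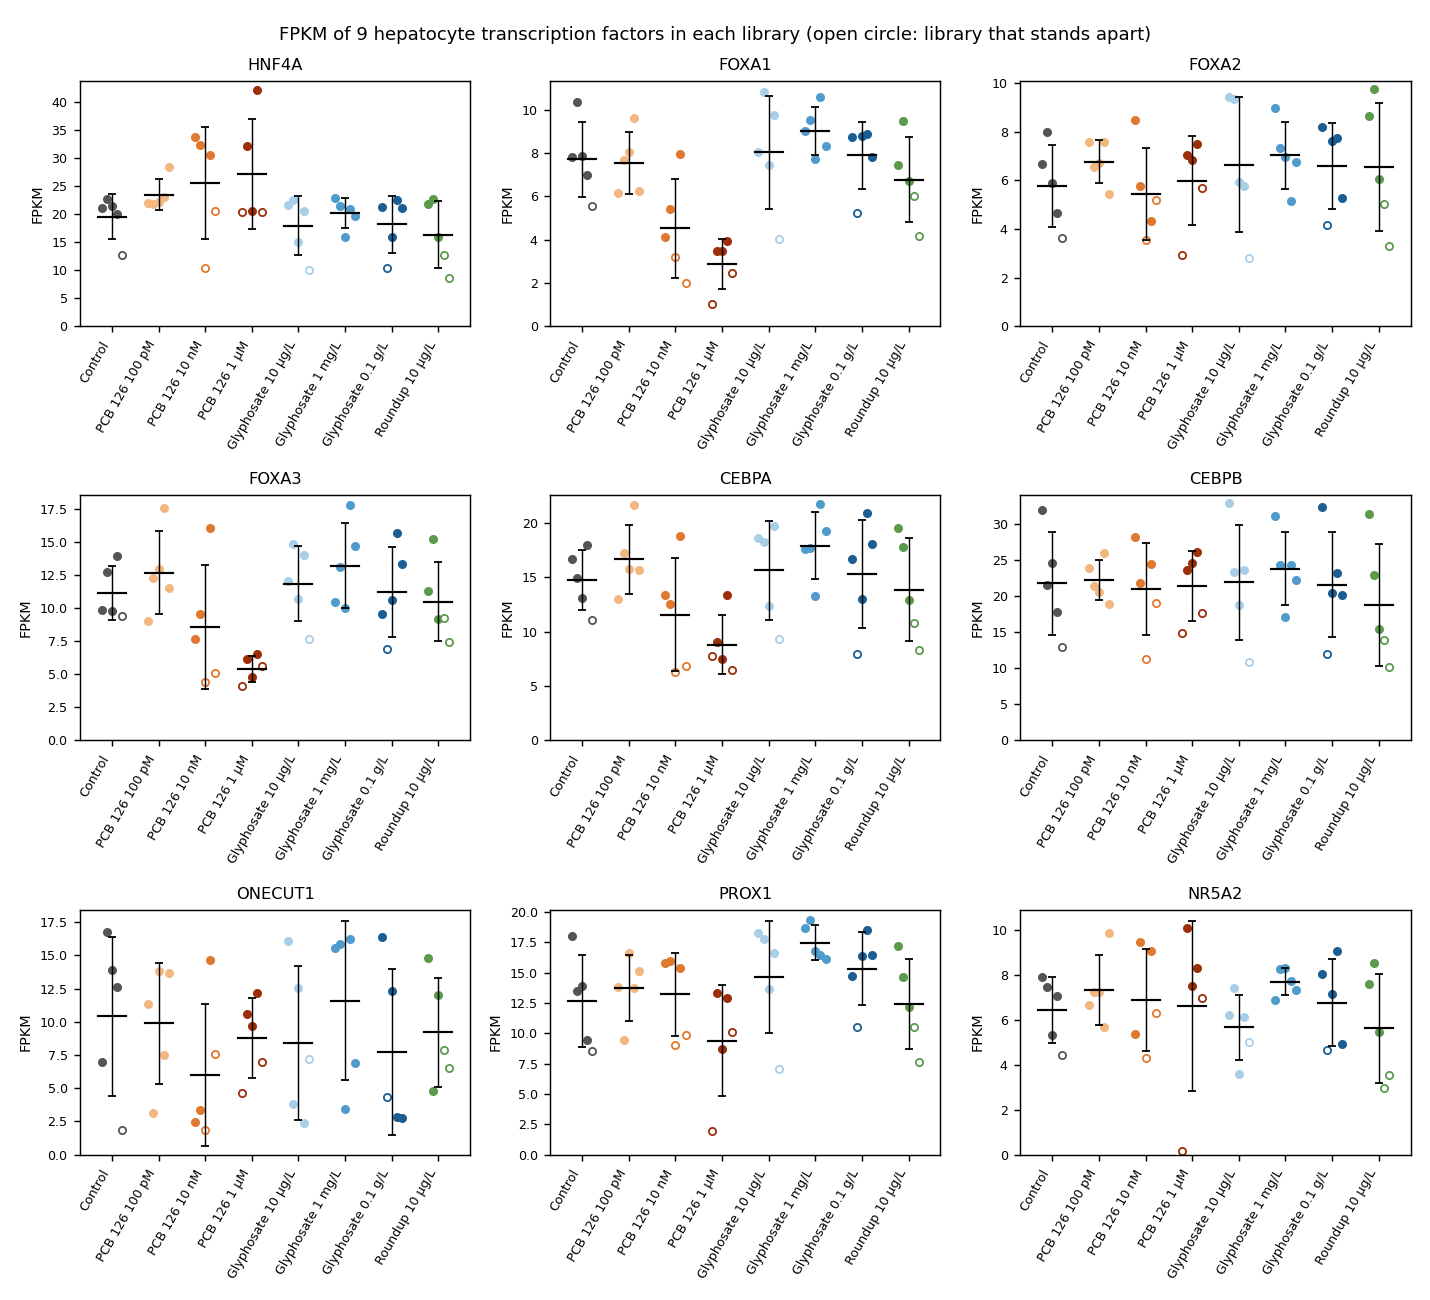
FPKM (y axis, linear from 0) of each of the 9 members in every library of the 8 groups (x axis), with the mean as a horizontal line and the SD as an error bar (n = 5). Open circles are the 9 libraries that stand apart. FOXA1 and FOXA3 at 1 µM PCB 126 lie wholly below their control libraries, while the herbicide groups overlap with the control in every panel.

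FOXA1 (chr14:37589984-37596059 on GRCh38), a pioneer factor that opens hepatic enhancers, fell at 1 µM PCB 126. The mean was 37.3% of the control mean. The control libraries had 7.83, 10.3, 7.84, 6.97 and 5.53 FPKM and the 1 µM libraries 1.02, 3.48, 3.49, 3.95 and 2.44 FPKM. Every 1 µM library was below every control library. The 100 pM libraries had 6.16, 7.67, 8.03, 9.61 and 6.23 FPKM, within the control range, and the 10 nM libraries had 4.10, 5.41, 3.17, 7.96 and 2.00 FPKM. At 10 nM 4 of the 5 libraries were below the lowest control library and the remaining library, replicate 4, was above the control median. On the log2(FPKM + 1) scale the difference from control was -1.21 ± 0.29 at 1 µM (SE, adjusted p = 0.0213, limma with Benjamini-Hochberg adjustment over 9755 genes) and -0.73 ± 0.29 at 10 nM (adjusted p = 0.779). The contrast at 10 nM passed under 1 of 13 other settings (adjusted p = 0.0457). The test across the 4 PCB groups gave an adjusted p of 0.0393, a call kept in 8 of 20 fits that each left out 1 library and in 8 of 11 other settings (adjusted p up to 0.142). The change per dose step (control, 100 pM, 10 nM, 1 µM) was -0.43 ± 0.09 (adjusted p = 0.0046). The median of all genes tested was itself -0.26 at 1 µM and -0.21 at 10 nM, and the FOXA1 difference at 1 µM stayed between -1.49 and -0.91 over 13 other settings. The call at 1 µM was lost on leaving out control replicate 2 (adjusted p = 0.0749), control replicate 3 (0.0538), 1 µM replicate 1 (0.0626) or 1 µM replicate 5 (0.0537), and with no filter on low values (0.068). Without the 9 libraries that stand apart the difference at 1 µM was -0.98 (adjusted p = 0.0082). The FOXA1 mean at 10 nM was then 5.83 FPKM (n = 3) against 8.25 in the control group (n = 4).

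FOXA3 (chr19:45863989-45873797), a FOXA factor of liver metabolism genes, was at 48.6% of its control mean at 1 µM. The control libraries had 9.85, 12.7, 9.82, 13.9 and 9.44 FPKM and the 1 µM libraries 4.08, 6.14, 4.77, 6.52 and 5.60 FPKM, again with no overlap. At 10 nM the libraries had 7.66, 9.55, 4.41, 16.1 and 5.08 FPKM, a spread that reached from under the 1 µM median to above the highest control library, and at 100 pM they lay between 9.03 and 17.6 FPKM. Without the libraries that stand apart the FOXA3 mean was 11.1 FPKM at 10 nM (n = 3) and 5.81 at 1 µM (n = 3). The control mean was then 11.6 FPKM (n = 4). The contrast at 1 µM was -0.92 ± 0.27 on the log2 scale and missed the threshold over all genes (adjusted p = 0.0838), whereas the change per dose step passed it (-0.34 ± 0.09, adjusted p = 0.0264). The contrast passed under 6 of 13 other settings, among them scaling by the 75th percentile (adjusted p = 0.0237) and the fit without the libraries that stand apart (0.044). The dose-step call was lost without control replicate 2 (0.0528), control replicate 4 (0.0584), or 1 µM replicate 1 (0.0683), 3 (0.0578) or 5 (0.0593), without all libraries that stand apart (0.0682), and with no filter on low values (0.0631).

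FOXA2 (chr20:22581005-22585455), a FOXA factor of early liver development, passed no test. Its control libraries had 6.67, 8.01, 5.89, 4.64 and 3.65 FPKM and its 1 µM libraries 2.94, 7.03, 6.82, 7.49 and 5.67 FPKM. The groups overlapped, as did 100 pM at 5.42 to 7.58 FPKM and 10 nM at 3.55 to 8.48 FPKM with the control group, and the difference at 1 µM was 0.03 on the log2 scale with a 95% confidence interval from -0.50 to 0.56. Within libraries, the log2 ratio of FOXA1 to FOXA2, taken on FPKM + 1, was 0.20 to 0.50 in the control group and -0.96 to -0.78 at 1 µM. The mean ratio was 0.38 ± 0.12 in the control group and -0.87 ± 0.09 at 1 µM (SD, n = 5 each), a difference of -1.25. The 2-sided exact permutation test gave p = 0.0079, the smallest value that splits of 5 against 5 allow, and 0.125 after Benjamini-Hochberg adjustment over the 21 ratio and share tests. At 10 nM the ratio ran from -1.04 to 0.76, wider than in any other group, with replicate 4 alone above the control range. Without the libraries that stand apart the difference at 1 µM was -1.16, with no overlap, and with a pseudocount of 0.1 it was -1.53. At 100 pM the ratio was 0.13 ± 0.22, a difference of -0.25 (exact permutation p = 0.0238, 0.125 adjusted). The labels number the libraries in 5 runs of 1 library per group, and replicate 1 had the lowest ratio in 7 of the 8 groups. Within the runs the ratio was lower than in the control library in 5 of 5 at 100 pM (-0.46 to -0.13), 4 of 5 at 10 nM and 5 of 5 at 1 µM (-1.45 to -1.16), where the exact test over sign changes cannot go below p = 0.0625.

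CEBPA (chr19:33299934-33302564), a factor of hepatocyte quiescence and metabolism, stood at 59.8% of its control mean at 1 µM. The control libraries had 16.6, 14.9, 13.1, 18.0 and 11.1 FPKM, the 10 nM libraries 13.4, 12.5, 6.29, 18.8 and 6.86 FPKM, and the 1 µM libraries 7.73, 9.04, 7.45, 13.4 and 6.48 FPKM. At 1 µM 4 libraries were below all controls and replicate 4 lay inside the control range. Without the libraries that stand apart the CEBPA mean was 14.9 FPKM at 10 nM (n = 3) and 9.95 at 1 µM (n = 3). The control mean was then 15.7 FPKM (n = 4). Over all libraries the difference was -0.70 ± 0.27 at 1 µM (limma, adjusted p = 0.231) and -0.27 ± 0.09 per dose step (adjusted p = 0.0819), so neither passed the threshold over all genes. The contrast at 1 µM passed under 1 of 13 other settings (adjusted p = 0.0302). The test across the 4 PCB groups passed under 1 of 11 (0.0222). At 100 pM the mean was 16.7 ± 3.17 FPKM (SD, n = 5), above the control mean by less than 1 SD. The dose step passed under 5 of 11 other settings, with 75th-percentile scaling (adjusted p = 0.0428), quantile normalization (0.0271), array weights (0.0178), locus sums (0.0418) and a replicate block (0.0208), and on leaving out control replicate 5 (0.0275) or 10 nM replicate 4 (0.0478).

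CEBPB (chr20:50190734-50192689), the C/EBP member induced by injury and inflammation, passed no test. Its libraries had 32.0, 21.6, 24.7, 17.8 and 12.99 FPKM in the control group and 14.9, 23.7, 24.6, 26.1 and 17.7 FPKM at 1 µM. All 1 µM values lay inside the control range, and the difference was 0.00 on the log2 scale with a 95% interval from -0.54 to 0.55. The log2 ratio of CEBPB to CEBPA within libraries averaged 0.49 ± 0.40 without PCB 126, 0.41 ± 0.24 with 100 pM, 0.85 ± 0.37 with 10 nM and 1.2 ± 0.31 with 1 µM (SD, n = 5 each). The lowest 1 µM library (0.87) fell under the highest control library (0.90), so the ranges touched. The 2-sided exact permutation test at 1 µM gave p = 0.0159, and 0.125 after adjustment over the 21 tests. Without the libraries that stand apart the difference was 0.71 (exact permutation p = 0.0571). Replicate 1 had the highest ratio in 6 of the 8 groups, and within the runs of library numbers the ratio at 1 µM was above that of the control library in 4 of 5.

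**Figure D2:**
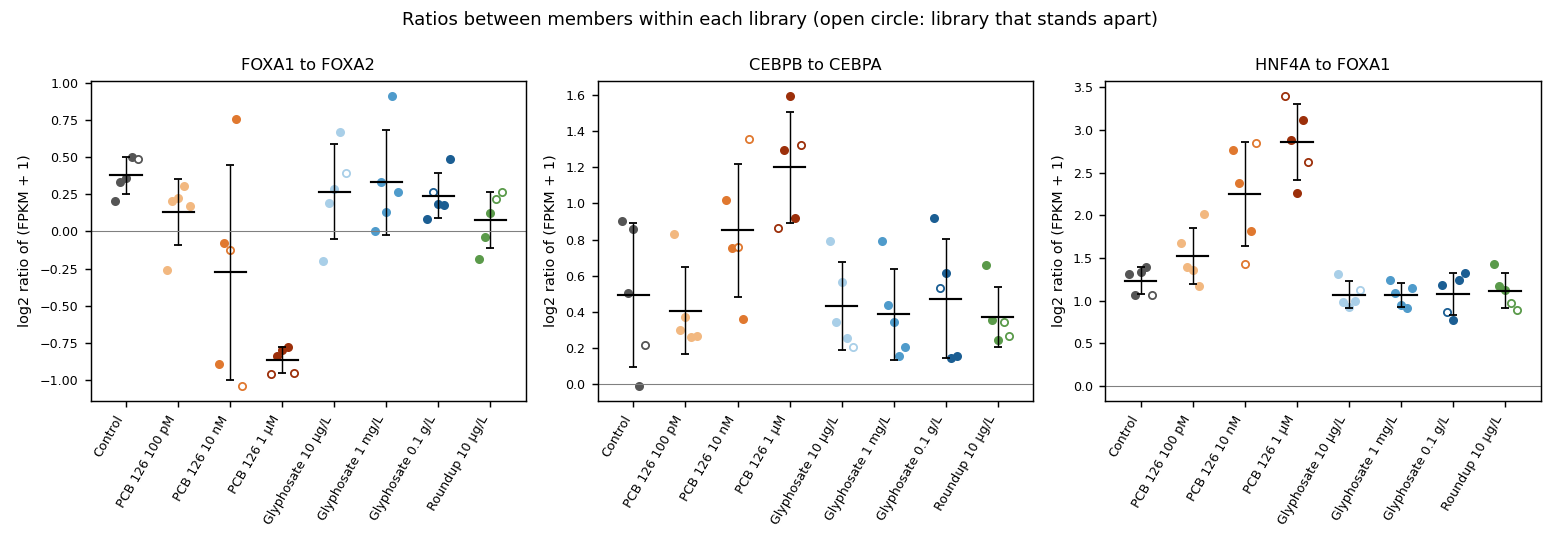
Log2 ratio of (FPKM + 1) between 2 members of the same library (y axis) by group (x axis), for FOXA1 to FOXA2, CEBPB to CEBPA, and HNF4A to FOXA1, with mean and SD (n = 5) and open circles for the libraries that stand apart. At 1 µM PCB 126 all 5 libraries lie below the control range for FOXA1 to FOXA2 and above it for HNF4A to FOXA1.

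HNF4A (chr20:44355700-44434596), the central nuclear receptor of hepatocytes, was not called in any comparison, and its mean at each PCB 126 dose was above that of the control group. Its libraries had 20.998, 22.7, 21.4, 19.9 and 12.7 FPKM in the control group, 33.8, 32.2, 10.3, 30.5 and 20.6 FPKM at 10 nM, and 20.4, 32.1, 20.5, 42.0 and 20.2 FPKM at 1 µM. At 10 nM 3 libraries and at 1 µM 2 libraries were above the highest control library, and the rest overlapped with the control group or lay below it. At 10 nM the rest were replicates 3 and 5, which stand apart. Without such libraries the HNF4A mean was 32.2 FPKM at 10 nM (n = 3) and 31.5 at 1 µM (n = 3). The control mean was then 21.2 FPKM (n = 4). No member was called at 10 nM in the fit without them. The difference at 1 µM was 0.41 with a 95% interval from -0.19 to 1.01 (limma, adjusted p = 0.526). Among the alternatives it passed the threshold with quantile normalization alone (0.60, adjusted p = 0.023), and was 0.49 without the libraries that stand apart (adjusted p = 0.151). The change per dose step, 0.13 (adjusted p = 0.392), passed with quantile normalization (0.0071) and with array weights (0.0286). The log2 ratio of HNF4A to FOXA1, a pair chosen after its values were seen and therefore not tested, was 1.06 to 1.39 in the control libraries, 1.43 to 2.85 at 10 nM and 2.26 to 3.40 at 1 µM. It was 0.78 to 1.43 in the 20 herbicide libraries.

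HNF4A transcripts from the P2 and P1 promoters, whose sequences are printed above, contributed nearly equal amounts in the control group. The 5 named P2 transcripts summed to 10.4 ± 2.08 FPKM and the 4 named P1 transcripts to 9.14 ± 2.48 FPKM (SD, n = 5). The P2 share in the control libraries was 49.2, 59.9, 48.7, 49.4 and 61.5%. At 10 nM it was 56.3, 33.5, 24.5, 35.2 and 25.5%, so 4 of 5 libraries were below every control library. At 1 µM it was 59.7, 50.7, 42.0, 34.2 and 25.1%, with 3 of 5 below. The exact permutation test (2-sided) gave p = 0.0317 for the difference of -18.7 percentage points at 10 nM and p = 0.143 for -11.4 points at 1 µM. Adjusted over the 21 tests they were 0.133 and 0.375. P1 transcripts stood at 15.8 ± 5.32 FPKM at 10 nM and 15.7 ± 7.30 at 1 µM, and P2 transcripts at 9.66 ± 6.33 and 11.3 ± 4.49. The share also varied widely in groups without PCB 126, for example from 25.4 to 70.4% at 10 µg/L glyphosate. Without the libraries that stand apart the difference at 10 nM was -10.1 points (exact permutation p = 0.2). Transcripts of both promoters share exons, so the share is an estimate of StringTie.

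**Figure D3:**
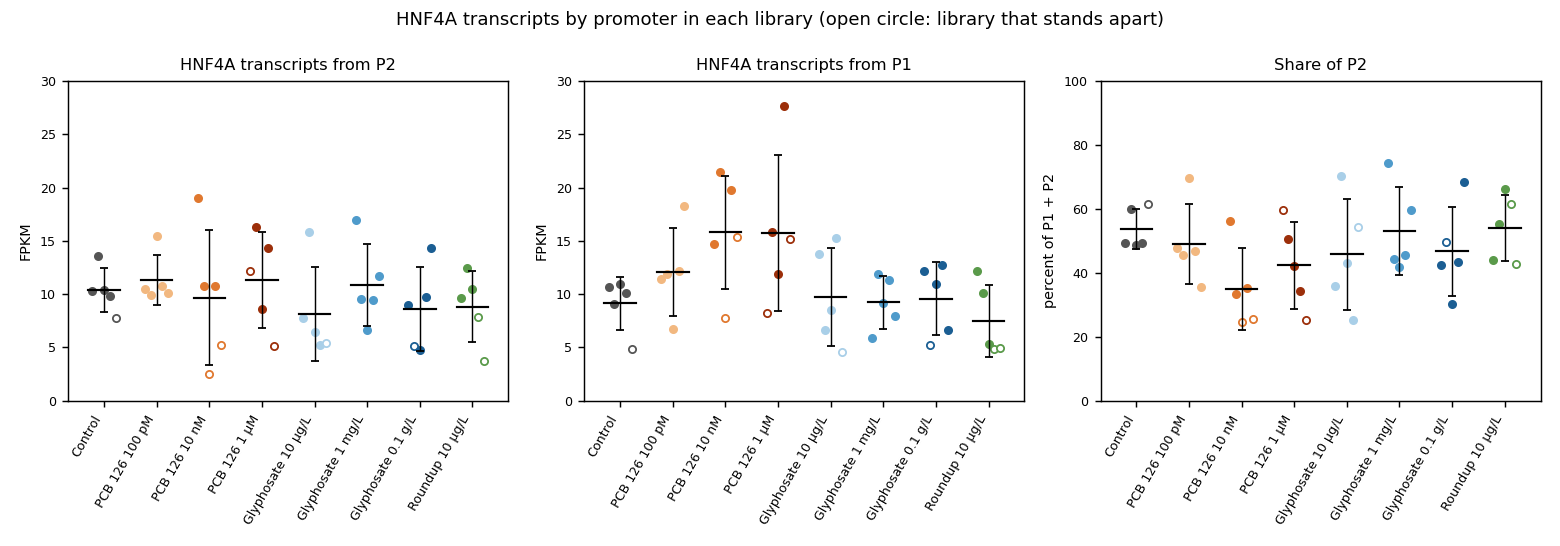
FPKM of the HNF4A transcripts starting at the P2 and at the P1 promoter, and the P2 share in percent of both (y axes), by group (x axis), with mean and SD (n = 5) and open circles for the libraries that stand apart. The P2 share is lowest at 10 nM PCB 126, and P1 FPKM reaches 27.6 in 1 library at 1 µM.

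PROX1 (chr1:213983181-214041502) and NR5A2 (chr1:200027602-200177424) had the same library at 1 µM, replicate 1, as their lowest of all 40, and so did FOXA1 and FOXA3. PROX1 libraries at 1 µM had 1.93, 13.3, 8.73, 12.9 and 10.1 FPKM against 8.57 to 18.0 in the control group. NR5A2 libraries at 1 µM had 0.181, 10.1, 7.53, 8.31 and 6.99 FPKM against 4.45 to 7.94. Apart from replicate 1, the 1 µM values of PROX1 overlapped with the control range and 2 of the 4 NR5A2 values were above it. Replicate 1 is among the libraries that stand apart, and it had 20.4 FPKM of HNF4A, inside the control range. Over all 5 libraries the differences at 1 µM were -0.54 for PROX1 (95% interval -1.24 to 0.16) and -0.27 for NR5A2 (-1.11 to 0.58). At 10 nM PROX1 lay between 9.04 and 15.9 FPKM and NR5A2 between 4.33 and 9.48 FPKM. Without the libraries that stand apart the differences at 1 µM were -0.21 and 0.28. Neither passed the test in either fit. PROX1 rested mainly on ENST00000498508 (68.6% of its sum) and ENST00000607425 (23.0%), and NR5A2 on ENST00000236914 (66.2%) and ENST00000367362 (18.4%).

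ONECUT1 (chr15:52756989-52791078) had the largest relative spread of the members, a coefficient of variation of 55.8% over 40 libraries. An assembled transcript without a gene name (52749913 to 52790012 on chromosome 15, GRCh38) shares its start with the main ONECUT1 transcript ENST00000305901 and held 26.2 to 83.1% of the locus. In 15 of the 40 libraries it held more than 50%, and the named ONECUT1 sum was low there. The control libraries had 6.97, 16.7, 13.9, 12.6 and 1.83 FPKM of named ONECUT1, but 10.2 to 27.6 FPKM of both together. Counting both, the coefficient of variation was 30.7%. At 1 µM PCB 126 the difference from control was -0.03 for named ONECUT1 (95% interval -1.01 to 0.95) and -0.53 for the whole locus (adjusted p = 0.367). ONECUT1 values from named transcripts alone are thus uncertain, and neither measure passed the test.

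**Figure D4:**
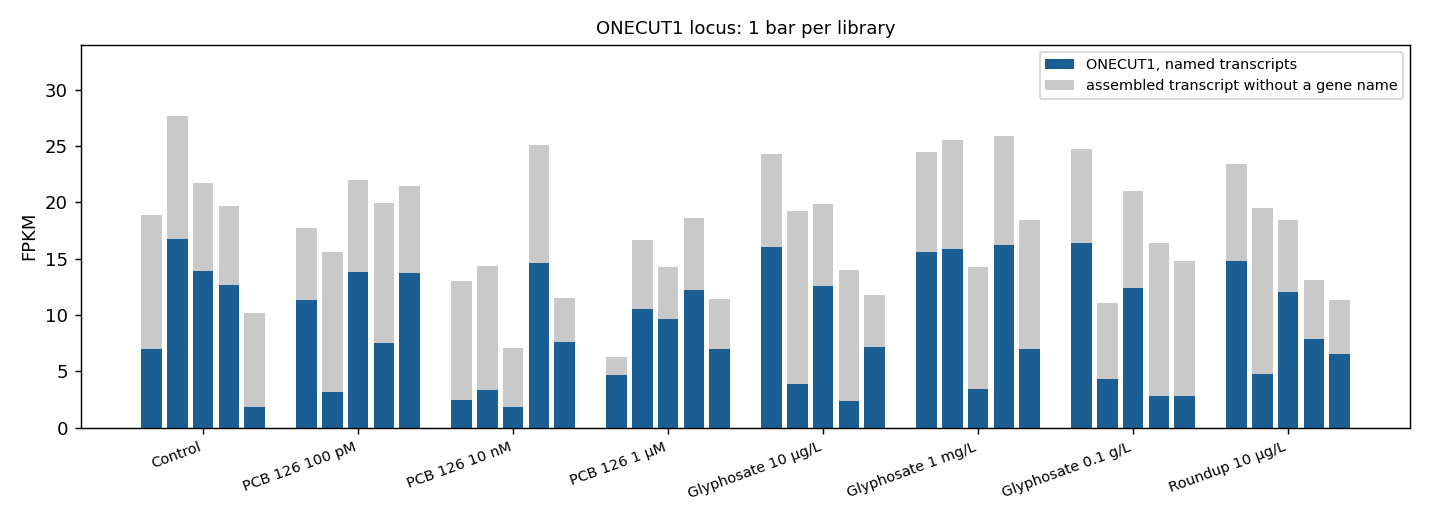
FPKM at the ONECUT1 locus (y axis), 1 stacked bar per library in the 8 groups (x axis), split into the named ONECUT1 transcripts and the assembled transcript without a gene name. The named part lies between 1.82 and 7.53 FPKM in the 15 libraries where the unnamed part exceeds 50%.

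Counted over all members, 1 of 9 passed the test at 1 µM (FOXA1, lower), against 1.87% of 9755 genes tested in either direction and 1.22% that were lower. None passed at 100 pM (background 0%) or 10 nM (0.205%), while 1 passed across the 4 PCB groups (1.39%) and 2 over the dose steps (3.78%). At an unadjusted p under 0.05 limma counted 0 members at 100 pM, 1 at 10 nM and 3 at 1 µM, against 1.19%, 4.85% and 13.6% of all genes. Values did not overlap with the control group for 0, 0 and 2 members, against 0.164%, 0.513% and 2.35% of all genes. All 9 members passed the filter on variance in both tables. The median difference of the 9 members at 1 µM was -0.27, close to the -0.26 of all genes tested. Scaling mattered for the split of all calls at 1 µM, which was 63 higher and 119 lower without scaling and 532 higher and 553 lower with quantile normalization. FOXA1, FOXA3 and CEBPA were lower and HNF4A was higher under every scaling tried, while the small differences of ONECUT1 and NR5A2 were -0.03 and -0.27 without scaling and 0.20 and 0.01 with quantile normalization.

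No member was called with glyphosate or Roundup. The number called was 0 of 9 in each of the 4 contrasts with control, in Roundup against glyphosate at 10 µg/L and across the 5 groups, where the background was also 0%. At an unadjusted p under 0.05 limma counted 0 members in each, against 0.997% of 9533 genes at 10 µg/L glyphosate, 1.31% at 1 mg/L, 0.881% at 0.1 g/L and 1.73% with Roundup. No member was without overlap, against 0.0524%, 0.178%, 0.0839% and 0.042% of genes. FOXA1 ranged from 4.005 to 10.8 FPKM at 10 µg/L glyphosate, 7.73 to 10.6 at 1 mg/L, 5.22 to 8.90 at 0.1 g/L and 4.18 to 9.49 with Roundup, all reaching into the control range of 5.53 to 10.3. PROX1 at 1 mg/L glyphosate had the largest difference among the 36 member contrasts upward, 0.47 (adjusted p = 0.963), with 16.1 to 19.3 FPKM against 8.57 to 18.0. The 36 differences lay between -0.44 and 0.47 and each 95% interval included 0. The lowest bound was -1.49 and the highest 1.26, both for ONECUT1. HNF4A with Roundup had 21.8, 22.6, 15.9, 12.7 and 8.61 FPKM, the lowest mean of the 8 groups at 16.3 ± 5.94 FPKM (SD, n = 5). Replicates 4 and 5 of this group stand apart, and without such libraries the mean was 20.1 FPKM against 21.2 in the control group. Over the 20 herbicide libraries FOXA2 lay between 2.81 and 9.74 FPKM, FOXA3 between 6.88 and 17.8, CEBPA between 7.95 and 21.8, CEBPB between 10.1 and 32.9, and NR5A2 between 2.98 and 9.10. For each of these 5 members the range included the whole control range. A range over 20 libraries tends to be wider than one over 5, so this does not show a lack of change. The log2 ratio of FOXA1 to FOXA2 was 0.08 ± 0.19 with Roundup against 0.38 ± 0.12 in the control group (exact permutation p = 0.0238, 0.125 adjusted), and it was lower than in the control library in 5 of 5 runs of library numbers (-0.39 to -0.23). With 0.1 g/L glyphosate the ratio was likewise lower in 5 of 5 runs (-0.32 to -0.006). Its mean was below the control mean with each of the 7 treatments. Both tables hold the same 5 control libraries, so the PCB 126 and herbicide contrasts are not independent.

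**Figure D5:**
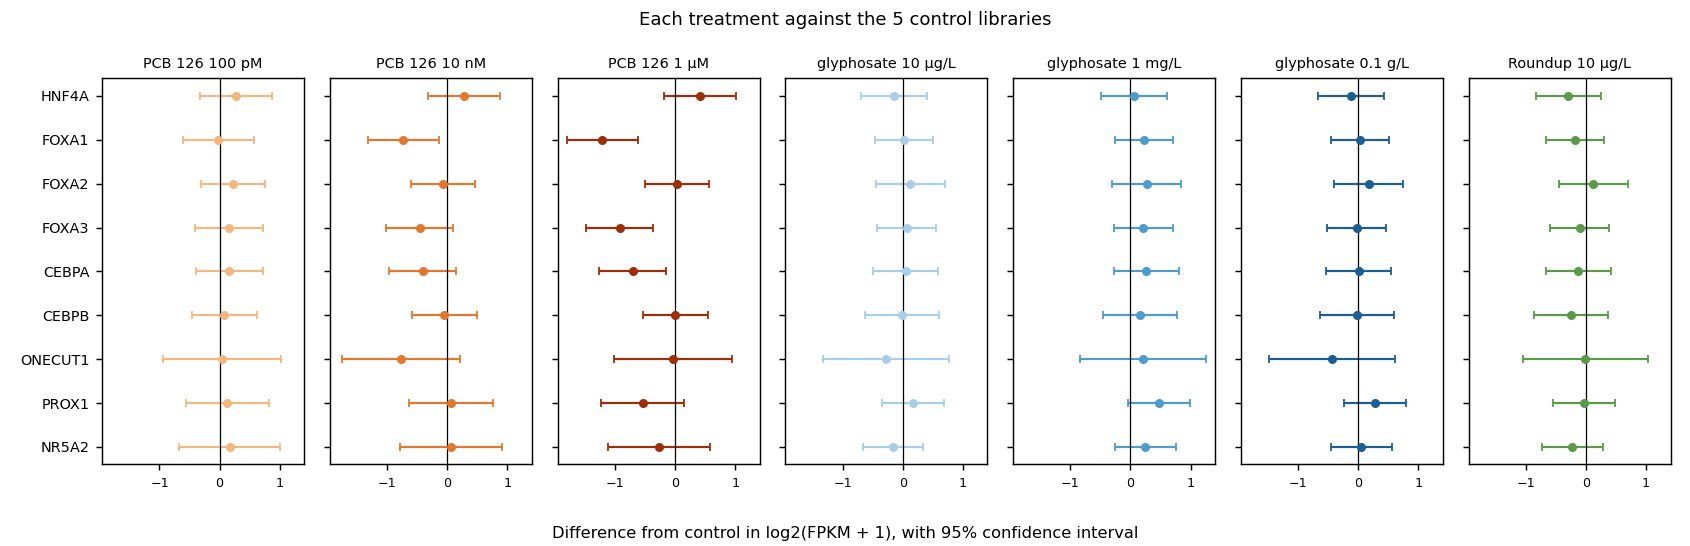
Difference from the 5 control libraries in log2(FPKM + 1) (x axis) for each of the 9 members (y axis) in the 7 treatments, as points with 95% confidence intervals from limma. FOXA1, FOXA3 and CEBPA have intervals below 0 at 1 µM PCB 126, FOXA1 also at 10 nM, and all 36 herbicide intervals include 0.

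Of a list of 22 other hepatocyte transcription factors, 15 passed the filter and 1 was called at 1 µM PCB 126, NR1H4, the bile acid receptor FXR, which went from 8.38 ± 3.75 to 2.99 ± 0.93 FPKM (SD, n = 5 each, log2 difference -1.19 ± 0.30, limma adjusted p = 0.0348). Of all 9755 genes tested, 1.87% were called at 1 µM. The median difference of the 15 was -0.23 at 1 µM, against -0.26 for all genes. None of the 15 was called at 100 pM, at 10 nM or with any herbicide treatment.

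Of 30 hepatocyte genes known to be regulated through these factors, 23 passed the filter in the PCB 126 table, and at 1 µM 4 were called lower and 1 higher. Of all 9755 genes tested at 1 µM, 1.22% were called lower and 1.87% in either direction. The list was chosen with earlier results of these data known. APOA2, an apolipoprotein of high-density lipoprotein, fell from 35.8 ± 8.86 to 3.09 ± 1.25 FPKM (log2 difference -3.20 ± 0.42, limma adjusted p = 4.4e-05). TTR, the thyroxine carrier transthyretin, fell from 361 ± 86.4 to 120.4 ± 42.2 FPKM (adjusted p = 0.008), FGB, the fibrinogen beta chain, from 1559 ± 477 to 638 ± 255 (0.0259), and CPS1, the first enzyme of the urea cycle, from 6.64 ± 2.58 to 2.42 ± 0.98 (0.0385). TAT, tyrosine aminotransferase, rose from 0.63 ± 0.16 to 3.66 ± 1.34 FPKM (0.005), and was also the only one of the 23 called at 10 nM (3.61 ± 1.64, adjusted p = 0.0322). At 10 nM 0.205% of all genes tested were called. The median of the 23 was -0.64 at 1 µM and -0.20 at 10 nM, against -0.26 and -0.21 for all genes tested. None was called with glyphosate or Roundup, where 21 passed the filter. TAT was not among these 21 and so was not tested there. The variance that the filter used in the PCB 126 table includes the rise of TAT at 10 nM and 1 µM. Its passing of the filter is thus not independent of that rise.

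Markers of the cell types in the culture differed between the same groups. At 1 µM PCB 126 the sum of the 11 hepatocyte markers was 5715 to 14535 FPKM against 14626 to 21336 in the control group. Of these markers, 3 of 11 were called lower, against 1.22% of all genes tested, the TTR, FGB and CPS1 already described. At an unadjusted limma p under 0.05, 7 of the 11 were lower, against 13.6% of all genes in either direction. Their median difference was -1.08. Albumin made up 50.7 to 62.9% of the hepatocyte marker sum in the control libraries. The sum of 14 biliary and progenitor markers was 189 to 320.1 FPKM against 307 to 595, with none of the 6 tested called. Of these 6, 4 were lower at 1 µM at an unadjusted limma p under 0.05. Their median difference was -0.78, against -0.26 for all genes tested, so lower values were not limited to the hepatocyte list. The sum of 9 mesenchymal markers was 50.8 to 190.1 against 41.2 to 92.0. Of the 6 tested, 1 was called, COL3A1, a fibrillar collagen, lower at 10 nM and 1 µM. It does not stand for the list. At an unadjusted limma p under 0.05, 2 of the 6 were higher and 3 lower at 1 µM, and 1 higher and 2 lower at 10 nM. The median difference of the 6 at 1 µM was -0.05, against -0.26 for all genes tested. The sum of 6 markers of endothelial cells and macrophages was 0.68 to 3.77 against 1.30 to 8.91, of which PECAM1, LYVE1, CD163 and PTPRC never reached 1 FPKM. EPCAM, CFTR, PROM1 and KRT23 of the biliary list, and COL1A2, VIM and THY1 of the mesenchymal list, also stayed under 1 FPKM in every library. In these bulk cultures fewer hepatocyte-like cells and less RNA per cell cannot be told apart, and the part of cell composition in the FOXA1 difference was not tested.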

How the data were processed

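Total RNA of HepaRG cultures was depleted of ribosomal RNA and made into directional libraries. Reads were mapped by the authors with HISAT2 on the GRCh38 build, and transcripts were built by StringTie. The authors deposited 2 tables with the FPKM of 234960 transcripts (tool and build names from the submitters' processing notes), with 20 libraries in the PCB 126 table and 25 in the herbicide table. The deposited columns that hold values below 0 are treated as a score, and 4 and 6 such values were set to 0. Library depth cannot be read from the FPKM, and the read totals that the study gives were not used here, so precision is judged from the 5 libraries per group.

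FPKM were summed per gene name and transformed to log2(FPKM + 1). Fold differences are on this scale and understate changes of low genes. Genes with a variance of FPKM above 1 in a table were fitted with limma 3.58.1 in R 4.3.3 (lmFit and eBayes), with all groups of the table in 1 fit, Benjamini-Hochberg adjustment over all genes tested and a threshold of 0.05. The fit was tested on simulated data. Ratios and the HNF4A P2 share were compared by 2-sided exact permutation tests over all splits of 5 against 5, adjusted over 21 tests. P2 and P1 transcripts start within 2 kb of ENST00000316673 and ENST00000316099. Python 3.11.15 with scipy 1.17.1 was used for the other steps. The members and lists were chosen with earlier results of these data known. Member contrasts are given with an adjusted p where the unadjusted p was under 0.05, and genes of a list where they passed the threshold, at most 4 a direction by smallest p. The adjusted p values of HNF4A at 1 µM and over the dose steps, PROX1 at 1 mg/L glyphosate and the ONECUT1 locus, and COL3A1 among the markers, were added after their values were seen. Replicates were numbered in the order of deposition, which follows 5 runs of library numbers in the labels. The alternatives were other pseudocounts, filters, scalings, models and gene values, a replicate block, and leaving out libraries. The values of 1 listed gene are not reported here.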

Additional observations from a re-analysis of the deposited data

Results flagged for a closer look

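In 96 groups of 5 libraries (9 members and 3 ratios or shares in 8 groups), 5 held a library whose distance to its nearest neighbour was over 0.71 of the range of the group, and chance alone flags about 1 in 20 groups. HNF4A was 12.7 FPKM in control replicate 5, which is among the libraries that stand apart, with the next control library at 19.9. HNF4A was 28.3 FPKM in replicate 5 at 100 pM PCB 126, against 22.9 in the next library. The log2 ratio of CEBPB to CEBPA was 0.83 in replicate 1 at 100 pM PCB 126 (next 0.37) and 0.66 in replicate 1 with Roundup (next 0.35). The log2 ratio of FOXA1 to FOXA2 was -0.26 in replicate 1 at 100 pM PCB 126, below the next library at 0.17.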

How the results depend on the processing

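FOXA1, FOXA3 and CEBPA kept their direction at 1 µM PCB 126 and over the dose steps under every alternative run. The number of members called at 1 µM (1 of 9) was 0 with no filter on low values, 2 with 75th-percentile scaling, with a replicate block, with all 40 libraries in one fit and without the libraries that stand apart, and 3 with quantile normalization and with array weights. Across the 4 PCB groups (1) it was 0 with a pseudocount of 0.1, with no filter and with the most abundant transcript, 2 with 75th-percentile scaling, quantile normalization and a replicate block, and 3 with array weights. Over the dose steps (2) it was 1 with no filter and without the libraries that stand apart, 3 with 75th-percentile scaling, locus sums and a replicate block, and 4 with quantile normalization and array weights. At 10 nM (0) it was 1 with quantile normalization. Leaving out 1 library at a time gave 0 to 1 at 1 µM, 0 to 2 across the groups and 1 to 3 over the dose steps, and the herbicide and 100 pM counts stayed at 0 under every alternative. The cause was not tested. The labels do not say what a run of library numbers shares. Deviations from the group means correlated at -0.06 to 0.17 between the 30 same-run pairs of the PCB 126 table, 7 of them over 0.1, and 13 of 20 libraries correlated best with their own run. In the herbicide table the 50 same-run pairs correlated at -0.17 to 0.36, 19 of them over 0.1, and 18 of 25 libraries correlated best with their own run. The main fits and the splits of 5 against 5 leave the runs out, and the block was kept as an alternative. Of the 9 libraries that stand apart, 5 are in run 5. The fit without the libraries that stand apart was chosen after the data were seen. Array weights were estimated gene by gene. The ratio and share tests are too coarse to show stability: the smallest p is 0.0079 for 5 against 5 and 0.0625 within runs, a test chosen after the data were seen, before adjustment over 21 tests. The 182 genes of the whole table called at 1 µM (63 higher, 119 lower) became 590 with 75th-percentile scaling (247, 343), 1085 with quantile normalization (532, 553), 895 with array weights (259, 636), 498 with a library-size term (271, 227), 397 with locus sums (121, 276), 357 with the replicate block (83, 274), 298 with all 40 libraries in one fit and 526 without the libraries that stand apart (206, 320). Array weights also called 550 genes with Roundup, 817 between Roundup and glyphosate and 468 across the herbicide groups, where 0 had been called, and no member among them. The number of libraries, 5 a group, limits the size of difference that could be detected.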
